A study of Mus musculus with 2 samples.

Results

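Chromatin accessibility in the mouse adrenal gland was described at 9 genes of the regulated exocytosis machinery, chosen by name out of 21911 protein-coding genes of the GENCODE M21 basic annotation. They are the SNARE genes Snap25, Stx1a and Vamp2, the synaptotagmin genes Syt1, Syt4 and Syt7, the vesicle priming genes Cadps and Unc13a, and the small GTPase gene Rab3a. In regulated exocytosis, vesicles loaded with hormone or transmitter wait beneath the plasma membrane and fuse when calcium enters the cell. The vesicle SNARE synaptobrevin, encoded by Vamp2, zips together with syntaxin and SNAP-25 of the plasma membrane, synaptotagmins sense the calcium, and priming factors make vesicles ready for release. In the adrenal gland the chromaffin cells of the medulla release catecholamines in this way, whereas the steroid hormones of the cortex leave cells without being stored in vesicles.

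The data were DNase-seq profiles, in which DNase I cuts accessible DNA in nuclei and the cut sites are sequenced. The tissue was whole adrenal gland of male B6CASTF1/J mice, a first-generation cross of C57BL/6J and CAST/EiJ, aged 8 to 10 months. There was 1 group with no treatment and no control, sampled as 2 pools of 6 biosamples each with 1 library per pool, here called replicate 1 and replicate 2, and both pools carry 1 donor identifier in the labels. The gland is a mixture of cortex, medulla and other cells, so a weak peak in few cells that are fully open and a weak peak in many cells cannot be told apart. The longer of the 2 deposited peak lists held 117371 peaks in replicate 1 and 146307 in replicate 2, and the footprint lists held 272595 and 319381 footprints, short stretches within accessible DNA that are protected from cutting. A peak carries the authors' signal, for which no scaling is stated, so the depth of the libraries is unknown. With 1 group and 1 library per pool no difference was tested, and values are given for each pool.

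The promoters of marker genes were read first to check the tissue. Of 11 chromaffin genes, 10 had a peak at the promoter in each pool, among them Th and Dbh, which encode enzymes of catecholamine synthesis, and all but Pnmt were found in replicate 1. Of 8 cortex genes, 7 had one in both pools, beside 61.9% of all protein-coding genes. The lists drawn up for other cells that run regulated exocytosis had smaller shares. They were 3 of 8 genes of brain neurons, 2 of 5 genes of sympathetic or enteric neurons and 1 of 3 genes of pancreatic endocrine cells. The summed promoter signal of the chromaffin list was 19.4 in replicate 1 and 27.7 in replicate 2, and that of the cortex list 26.6 and 30.4. It was 1.66 and 2.29 for the brain neuron list and 1.49 and 2.74 for the sympathetic or enteric list, and these sums run over lists of unequal length. Where a promoter peak was present, the median signal of the chromaffin list was 1.46 in replicate 1 and 1.94 in replicate 2. This was below the 2.94 and 3.81 over all genes, while the cortex list had 4.22 and 4.72. Of the brain neuron list, Gad1, Slc17a6 and Camk2a had a promoter peak in each pool and Rbfox3, Slc17a7, Slc32a1, Gad2 and Neurod6 had none in either. Of the sympathetic or enteric list, Npy had 1.07 in replicate 1 and 1.61 in replicate 2, and Elavl4 had 0.416 and 0.743. Stmn2 had a peak in replicate 2 alone, and Prph and Gap43 had none. Whether Npy marks neurons alone in this gland was not tested.

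Each of the 9 exocytosis genes had a peak at its promoter in replicate 1 and in replicate 2, where a promoter is the interval within 1 kb of any annotated transcription start site (TSS). Among all protein-coding genes the share was 62.9% in replicate 1, 65.3% in replicate 2 and 61.9% in both, so most genes share this property. Signal separated the 9 genes more than presence did. The highest promoter peak ranged from 0.81 at Syt4 to 8.76 at Rab3a in replicate 1, and from 1.06 at Cadps to 9.99 at Rab3a in replicate 2. Their median was 1.95 in replicate 1 and 3.0 in replicate 2, below the medians of 2.94 and 3.81 over all genes with a promoter peak. In both pools Rab3a lay above the upper quartile of those genes, Stx1a and Syt7 lay between the median and that quartile, and Snap25, Syt1, Syt4 and Cadps lay below the lower quartile of 1.34 in replicate 1 and 1.62 in replicate 2. Promoter footprints were found in both pools at 8 of the 9 genes, the exception being Cadps. All genes had them at 61.1% in replicate 1, 62.6% in replicate 2 and 59.7% in both. With 2 kb promoters they were found at 9 of the 9 genes, a width at which the share of all genes was not read.

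**Figure D1:**
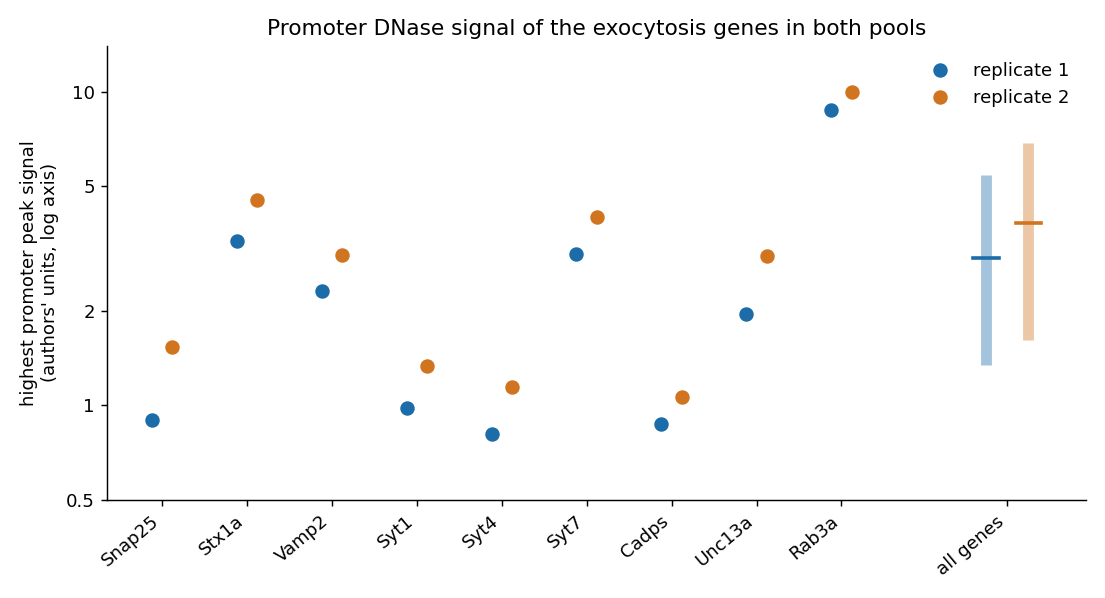
Highest promoter peak signal of each gene (y axis, the authors' units, log scale) in replicate 1 and replicate 2, with the quartile range (bar) and median (line) of all genes that have a promoter peak at the right. Rab3a stands highest at 8.76 and 9.99, and Snap25, Syt1, Syt4 and Cadps stand below the quartile range in both pools.

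The SNARE genes differed in strength and in where the peak lay. At Snap25 (chr2:136713453-136782428, plus strand, mm10 as are all positions), which encodes a SNARE of the plasma membrane, the peak over the TSS had a signal of 0.699 (replicate 1) and 1.30 (replicate 2). Another peak, centred 888 bp inside the gene in intron 1, was stronger in both pools, at 0.899 and 1.53. At Stx1a (chr5:135023482-135051100, plus strand), which encodes syntaxin 1A, 1 peak covered the TSS, and its signal was 3.33 in replicate 1 and 4.50 in replicate 2. At Vamp2 (chr11:69088490-69092384, plus strand) the peak over the TSS had 2.32 and 3.02. Stx1a was thus the strongest of these SNARE promoters and Snap25 the weakest, in both pools.

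The intron 1 peak of Snap25 held sequence matching RE1. RE1 is the element bound by REST, a repressor best known for keeping neuronal genes silent in cells that are not neurons, and it was read as the half-sites CAGCACC and GGACAG with 2 bases between them on either strand. The following stretches show the matches without a mismatch in Snap25 and Syt7, which lay under a peak of each pool, and 1 match with 2 mismatches in Cadps for comparison. They are reference sequence of GRCm38.p6, 5′ to 3′ on the strand of the match, with 10 bases on each side and the half-site positions in capitals. The CAST/EiJ allele carried by these mice may differ and was not analysed here.
Snap25 intron 1, first match, chr2:136714280-136714314, plus strand: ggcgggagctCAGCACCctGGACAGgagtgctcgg
Snap25 intron 1, second match, chr2:136714330-136714364, plus strand: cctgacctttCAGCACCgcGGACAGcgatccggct
Syt7 intron 1, chr19:10403273-10403307, plus strand: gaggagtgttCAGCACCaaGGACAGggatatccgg
Cadps intron 9, chr14:12530373-12530407, minus strand: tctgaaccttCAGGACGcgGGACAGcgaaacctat

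The first 2 of these matches lay together in 1 Snap25 peak, chr2:136714221-136714460. The second match was under a footprint in each pool, from 136714339 to 136714350 in replicate 1 and from 136714339 to 136714362 in replicate 2, and the first match was under none in either. The Syt7 match lay in an intronic region, chr19:10403234-10403411, whose signal was 0.751 in replicate 1 and 0.815 in replicate 2, and touched a footprint in replicate 2 alone. The Cadps match lay in a region with a signal of 0.557 and 0.696 and touched a footprint in replicate 1 alone. Other matches with 2 mismatches lay in the central 200 bp of regions of both pools in the windows of Snap25, Syt7 and Rab3a. None of those touched a footprint in either pool.

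Matches without a mismatch numbered 620 on the 21 chromosomes. Of these, 138 (22.3%) lay in a region with a peak of both pools, and 65 of those 138 (47.1%) touched a footprint in both, as the second Snap25 match did. With 1 mismatch, 4.91% of 6621 matches lay in such a region. Within 50 kb of the 9 gene bodies there were 4 matches without a mismatch, in Snap25, Syt7 and Syt4, all of them in a merged region with a peak of both pools. The 3 in Snap25 and Syt7 also lay under a peak of each pool, which the Syt4 match did not. There were 7 matches with 1 mismatch, around Cadps, Rab3a, Syt1 and Unc13a, and none of these lay in a peak of both pools. Read over the central 200 bp of regions with a peak of both pools, a match without a mismatch was present in 2 of 56 regions in the promoters and bodies of the 9 genes (3.57%) and in 0.118% of all 96584 such regions. With up to 2 mismatches the shares were 4 of 56 (7.14%) and 1.83%.

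The TSS peak of Snap25 held a different word. The sequence TGACGTCA, the full cyclic AMP response element (CRE) bound by CREB and related factors, lay at 136713435 to 136713442, shortly before the TSS, and touched a footprint in both pools. Within 1 kb of a TSS, 2.09% of regions with a peak of both pools held this word in their central 200 bp. The promoter of Snap25 had 6 footprints in replicate 1 and 7 in replicate 2, and 2 of the 6 overlapped a footprint of replicate 2.

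Of the 9 genes, 5 were matched in the RefSeq promoter table, Stx1a, Syt1, Cadps, Unc13a and Rab3a; Snap25, Vamp2, Syt4 and Syt7 were not. The promoters below are those with a peak over the window and the most bases under footprints of both pools, and Syt1 is given beside them as the weakest promoter with any. Each is RefSeq sequence of GRCm38.p6 running from 250 bases before to 50 bases after the annotated start, 5′ to 3′ on the strand of the gene, and capitals mark bases that lay under a footprint in both pools.
Stx1a, chr5:135023232-135023531, plus strand: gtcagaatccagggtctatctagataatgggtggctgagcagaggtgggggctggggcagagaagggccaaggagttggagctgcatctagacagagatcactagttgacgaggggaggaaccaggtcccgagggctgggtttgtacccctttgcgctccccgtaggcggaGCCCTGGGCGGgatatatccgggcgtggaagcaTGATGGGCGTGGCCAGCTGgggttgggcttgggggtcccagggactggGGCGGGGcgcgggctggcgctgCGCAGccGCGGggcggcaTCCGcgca
Rab3a, chr8:70754453-70754752, plus strand: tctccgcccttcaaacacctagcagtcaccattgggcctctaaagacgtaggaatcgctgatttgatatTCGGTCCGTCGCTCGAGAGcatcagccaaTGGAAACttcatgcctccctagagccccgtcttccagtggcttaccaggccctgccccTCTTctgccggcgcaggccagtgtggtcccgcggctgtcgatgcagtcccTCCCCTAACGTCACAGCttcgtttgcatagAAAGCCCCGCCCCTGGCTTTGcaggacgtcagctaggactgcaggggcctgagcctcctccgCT
Unc13a, chr8:71671708-71672007, minus strand: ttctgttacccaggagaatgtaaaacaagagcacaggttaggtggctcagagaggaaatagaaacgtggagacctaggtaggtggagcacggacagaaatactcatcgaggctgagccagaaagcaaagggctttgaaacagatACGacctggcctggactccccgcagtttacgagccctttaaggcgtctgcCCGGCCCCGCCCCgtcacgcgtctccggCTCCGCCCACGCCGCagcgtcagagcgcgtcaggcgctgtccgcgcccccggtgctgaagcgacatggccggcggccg
Syt1, chr10:109010926-109011225, minus strand: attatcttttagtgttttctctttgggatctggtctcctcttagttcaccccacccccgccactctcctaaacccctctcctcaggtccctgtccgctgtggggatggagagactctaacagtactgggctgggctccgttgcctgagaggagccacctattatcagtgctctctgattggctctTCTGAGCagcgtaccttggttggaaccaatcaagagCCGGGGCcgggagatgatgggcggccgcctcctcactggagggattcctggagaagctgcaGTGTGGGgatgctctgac

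The capitals covered 70 bases of the Rab3a promoter, 50 of Stx1a, 31 of Unc13a and 21 of Syt1, and none of the matching Cadps window. In Stx1a they fell in 6 blocks. All 3 matches to the GC box GGGCGG, a word bound by Sp1 and its relatives, touched a footprint of both pools, as did the E-box CAGCTG that ends 28 bp before the TSS. In Unc13a the 2 GC boxes of the window, read on the opposite strand, both touched one. In Rab3a 1 of 2 GC boxes did, and its footprint in replicate 2 lay outside the peak of that pool. In Syt1 the single GC box touched a footprint in replicate 2 alone, and both CCAAT words touched none in either pool. Among 32817 RefSeq promoters of the same length, 35.6% held a GC box, 37.4% a CCAAT word and 16.3% this E-box, on either strand, so these words are common and a match describes the sequence and not a bound factor.

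The share of footprints that repeated differed between the promoters. At Stx1a all 5 footprints of replicate 1 overlapped one of the 8 in replicate 2, and the footprint at 135023436 to 135023454, which spans the E-box, had the same bounds in both pools. At Vamp2 there were 3 footprints in replicate 1 and 11 in replicate 2, and all 3 overlapped one of the other pool. The widest of them in replicate 1 covered 69088558 to 69088587, inside exon 1, and replicate 2 had one from 69088559 to 69088590. Over the 9 genes, 32 of 49 footprints of replicate 1 and 28 of 79 of replicate 2 overlapped a footprint of the other pool by at least 1 bp. A peak of the same pool was touched by 43 of the 49 and 62 of the 79, and at Rab3a by 10 of 12 and 6 of 11.

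**Figure D2:**
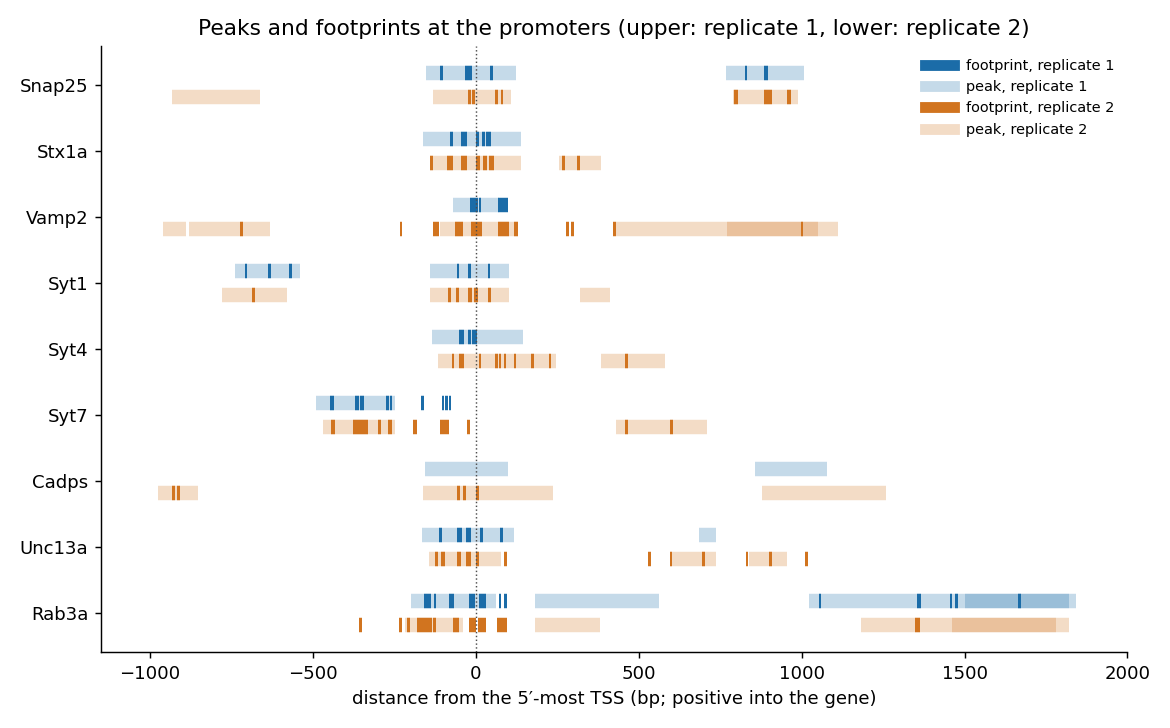
Peaks (pale bars) and footprints (dark bars, drawn at least 8 bp wide) within reach of the promoters, by distance from the 5′-most TSS in bp on the x axis, with replicate 1 above and replicate 2 below for each gene. At Stx1a all 5 footprints of replicate 1 overlap one of replicate 2, and the Syt7 peak lies upstream of its TSS. Cadps has no footprint within 1 kb of its TSSs in replicate 1.

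The calcium sensor genes covered a wide range. At Syt7 (chr19:10389090-10453180, plus strand), which encodes a sensor of high calcium affinity, the promoter peak had a signal of 3.04 (replicate 1) and 3.99 (replicate 2). It was centred 369 bp upstream of the 5′-most TSS in replicate 1 and 359 bp in replicate 2 and covered none of the 4 annotated TSSs. Its promoter had 9 footprints in each pool, of which 7 of replicate 1 overlapped one of replicate 2. The Syt7 promoter was also the most GC-rich of the 9, with 72.5% G and C within 500 bp of the TSS.

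At Syt1 (chr10:108497650-109010982, minus strand), the sensor of fast release, the peak over the TSS had 0.981 in replicate 1 and 1.33 in replicate 2. An upstream peak, centred at -639 bp in replicate 1 and -679 bp in replicate 2 from the TSS, had 0.676 and 0.496 and was weaker in replicate 2. Both pools had 6 promoter footprints, and 3 of each overlapped one of the other pool.

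Syt4, which encodes a synaptotagmin whose first C2 domain does not bind calcium in mammals, lies on chromosome 18 (31437808 to 31447406, minus strand). Its peak over the TSS had 0.81 in replicate 1 and 1.14 in replicate 2, and it was the only promoter region of the gene found in both pools. There were 3 promoter footprints in replicate 1 and 10 in replicate 2, and 1 of the 3 overlapped one of the other pool. The remaining RE1 match without a mismatch lay in exon 1 of Syt4, 217 bp inside the gene, under the wider peak of replicate 2 and outside the narrower peak of replicate 1, and under no footprint.

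Of the priming genes, Unc13a (chr8:71624417-71671757, minus strand), which encodes Munc13-1, a protein that opens syntaxin for SNARE assembly, had 1.95 in replicate 1 and 3.0 in replicate 2 at the peak over its TSS. Its strongest own region was not the promoter but a region 42336 bp downstream of the TSS, chr8:71629281-71629560, with 5.37 and 8.29. The midpoint of this region lay in an exon that is number 44 or 45 depending on the transcript. That region had 4 footprints in each pool and 2 GC boxes under footprints of both. Cadps (chr14:12372563-12823079, minus strand) encodes CAPS-1, which primes dense-core vesicles, the granules that hold catecholamines. Its TSS peak, at 0.498 in replicate 1 and 0.632 in replicate 2, was the weakest among the 7 genes with a peak over a TSS in both pools, and a peak in intron 1 centred 968 and 1068 bp inside the gene was stronger, at 0.869 and 1.06. Within 1 kb of its TSSs Cadps had no footprint in replicate 1 and 5 in replicate 2. The region of the intron 1 peak, chr14:12821821-12822220, had 2 footprints in replicate 1 and 1 in replicate 2, all beyond that distance.

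Rab3a (chr8:70754679-70758677, plus strand), the GTPase that sits on secretory vesicles, had the strongest promoter of the 9, at 8.76 and 9.99 in the pools, or 9.38 ± 0.871 (SD, n = 2). These values stood at the 91.3 and 89.9 percentiles of all genes with a promoter peak. The peak covered the 5′-most TSS in replicate 1 and ended upstream of it, at 70754640, in replicate 2. The gene is 4.0 kb long and 5 regions of both pools lay along it, in its promoters, introns and exons, from 70754461 to 70758460. The word CAAGGTCA, bound by the steroidogenic factor encoded by Nr5a1, lay inside the gene at 70756032 to 70756039 and touched a footprint in both pools. It was present in 2.05% of promoter regions with a peak of both pools. Outside promoters, 1 of 41 regions in exons and introns of the 9 genes held it (2.44%), against 7.15% of all regions over 1 kb from any TSS. That match, in Syt1 at 108583158 to 108583165, touched no footprint in either pool.

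Regions away from the promoters were most numerous in the longest genes, where they were weak. Windows reaching 50 kb beyond each gene body held 291 merged regions, of which 162 had a peak of both pools, 30 of replicate 1 alone and 99 of replicate 2 alone. Of the 162, 56 lay in the promoters, exons or introns of the 9 genes, 40 in promoters of other genes 46 between genes and the rest in exons or introns of other genes. Syt1, whose body spans 513 kb, had 12 regions outside its promoter, from 31181 to 500621 bp inside the gene, with signals of 0.223 to 0.996 in replicate 1 and 0.224 to 1.05 in replicate 2. Cadps, spanning 451 kb, had 10, with 0.215 to 0.639 and 0.360 to 0.743. Syt1 and Cadps thus held 22 of the 41 regions in exons and introns of the 9 genes. For their length they were sparse. The window of Syt1 held 2.45 regions of both pools per 100 kb and that of Cadps 2.36, against a median of 6.2 over all genes.

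The word TGANTCA, bound by AP-1, was found in 9 of those 41 regions (22.0%), against 25.9% of all distal regions with a peak of both pools, distal being over 1 kb from any TSS. It fell in 5 regions of Syt1, 3 of Cadps and 1 of Stx1a. In Syt1 it touched a footprint of both pools at 108510321 to 108510327 and at 108581749 to 108581755. In Cadps it did so in all 3 regions, the strongest of which, chr14:12745041-12745240 in intron 1, had 0.639 in replicate 1 and 0.743 in replicate 2.

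**Figure D3:**
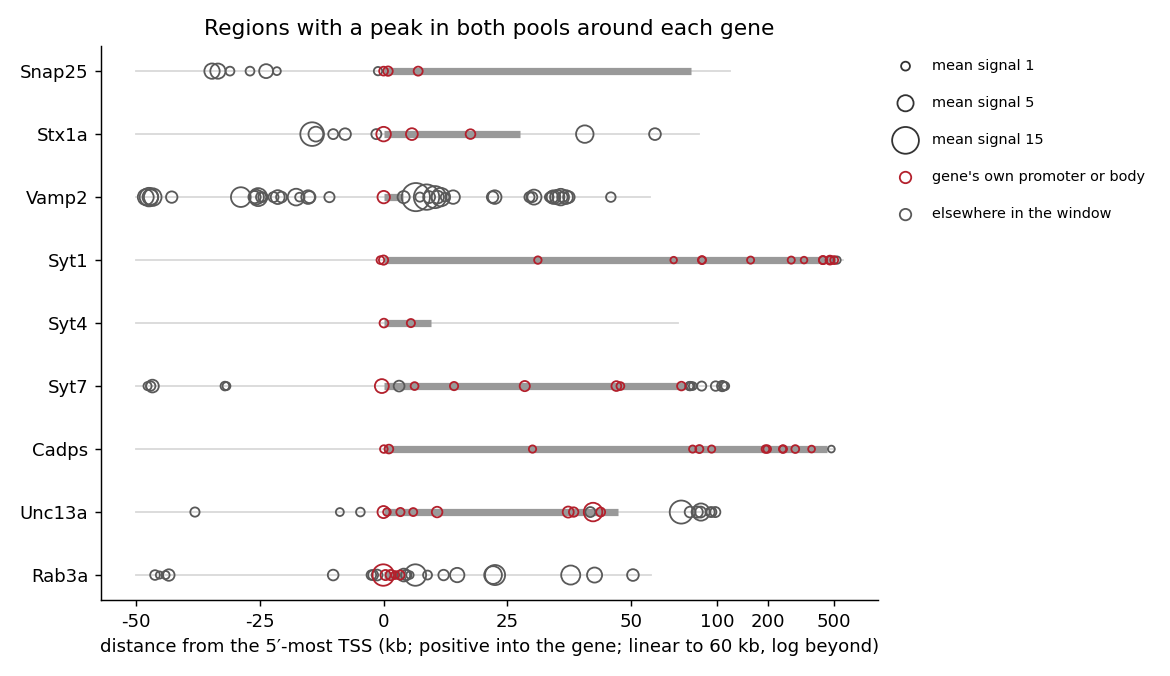
Regions with a peak of both pools (circles, area growing with the mean signal of the pools) around each gene, by distance from its 5′-most TSS in kb on the x axis, which is linear to 60 kb and logarithmic beyond. Thick grey lines mark gene bodies and thin lines the windows. The 12 regions in the body of Syt1 and the 10 in that of Cadps are spread over long introns, and the window of Vamp2 is dense with regions of its neighbours.

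The other genes had fewer regions in exons and introns, leaving out regions in the promoter of another gene. Snap25 had 1 outside its promoter, in intron 1 at 6978 bp, whose signal was 0.676 in replicate 1 and 1.46 in replicate 2. Syt4 had 1, in intron 2, with 0.550 and 0.943. Syt7 had 6, the strongest of which, chr19:10417501-10417740 in intron 2, had 1.51 and 1.61. A region in intron 1 of Syt7, chr19:10392101-10392320, was stronger, at 1.81 and 1.89, and lay in the promoter of Gm26859. Another of the 6, over exon 12, held a match to the CTCF motif that touched a footprint in both pools. Stx1a had 2, the stronger in intron 1 with 1.98 and 2.69. Unc13a had 7, all with footprints in both pools, and Vamp2 had none.

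The neighbourhoods were unlike. The windows of Vamp2 and Rab3a held 42.4 and 24.0 regions of both pools per 100 kb, that of Syt4 1.82, and the median over all genes was 6.20. In the window of Vamp2, 18 of 44 regions were promoters of other genes, and the strongest, chr11:69094781-69095220 at Per1, a clock gene, had 15.9 in replicate 1 and 17.4 in replicate 2, far above Vamp2's own 2.32 and 3.02. The strongest region near Stx1a was the promoter of Abhd11 with 9.94 and 13.1, and that near Unc13a was the promoter of Colgalt1 with 9.75 and 12.2. Near Rab3a the promoter of Mpv17l2 had 8.78 and 10.0, about level with Rab3a itself. The strongest region near Snap25 lay between genes, at -34702 bp from its TSS at chr2:136678581-136678920, with 3.71 and 5.16, and so was stronger than either promoter peak of Snap25. At Syt1, Syt4, Syt7 and Cadps the strongest region of the window belonged to the gene itself. A region near a gene is not assigned to it by these data.

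Replicate 2 gave higher promoter signals at all 9 genes, by 1.14 times at Rab3a to 1.71 times at Snap25. On the log2 scale the median ratio, replicate 2 over replicate 1, was 0.43, from 0.19 to 0.77, beside 0.38 over all genes with a promoter peak in both pools. For chromaffin markers the median was 0.45 and for cortex markers 0.25; whether medulla content of the pools has a part in these values was not tested. Over the 162 regions of the windows the median was 0.40, against 0.35 over all 96584 regions with an SD of 0.37; the difference between these medians was not tested. Of the 56 regions in the genes themselves, 9 were weaker in replicate 2, beside 16.6% of all regions with a peak of both pools.

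**Figure D4:**
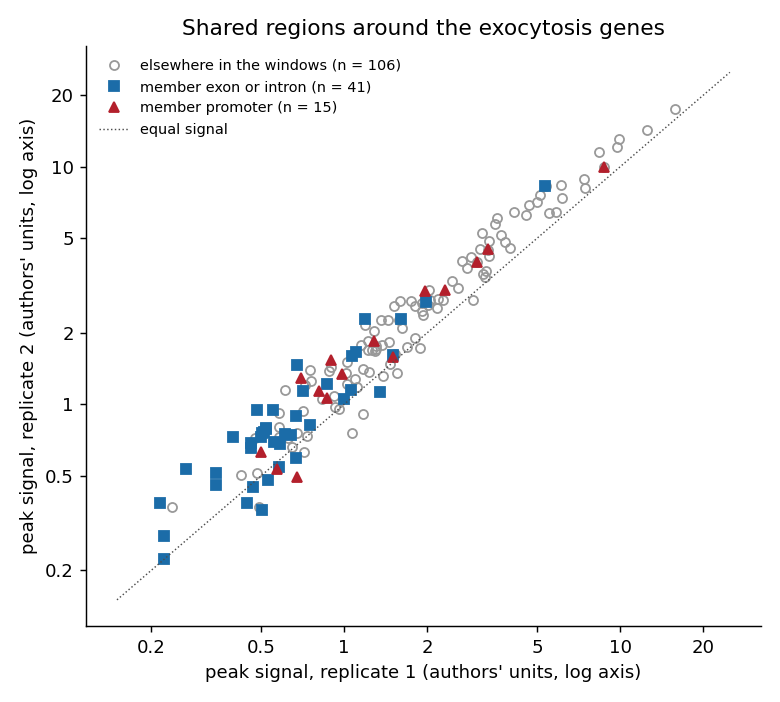
Peak signal of the 162 regions with a peak of both pools, replicate 1 on the x axis and replicate 2 on the y axis, both in the authors' units on log scales, with 15 promoter regions, 41 exon or intron regions and 106 other regions of the windows marked apart. Most points lie above the dotted line of equal signal, and the regions in the genes themselves run from about 0.2 to the Rab3a promoter at 8.76 and 9.99.

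Other genes of the release machinery were read in the same way. Of 75 genes on a wider list, 56 (74.7%) had a peak at the promoter in each pool and 15 had none in either, beside the 61.9% of all genes. By role, 21 of 24 SNAREs and their regulators had one in both pools, 8 of 13 calcium sensors, 2 of 5 priming factors, 17 of 22 Rab proteins, effectors and active-zone proteins, and 8 of 11 vesicle proteins. The strongest were Napa, whose product alpha-SNAP helps take SNARE complexes apart, with 13.5 in replicate 1 and 14.8 in replicate 2, Rab3gap2, a subunit of the Rab3 GTPase-activating complex, with 11.6 and 14.4, and Snap29, a SNARE of inner membranes, with 8.52 and 11.9. The genes with no promoter peak included Cplx3, Cplx4, Syt2, Syt6, Syt10, Doc2a, Doc2g, Unc13d, Baiap3, Sytl1, Sytl2, Sytl5, Exph5 and Syngr3.

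Paralogs set the 9 genes in context. Snap23 had 6.17 in replicate 1 and 7.71 in replicate 2 where Snap25 had 0.899 and 1.53, and Vamp3 had 6.55 and 8.83 where Vamp2 had 2.32 and 3.02. Stx4a, at 5.42 and 5.92, was above Stx1a at 3.33 and 4.50, and Stx3, at 1.43 and 2.14, was below it. Unc13b had 3.81 and 5.88 and stood above Unc13a at 1.95 and 3.0. Syt11, at 2.80 and 4.30, stood above Syt1 and Syt4, and against Syt7 it was lower in replicate 1, at 2.80 to 3.04, and higher in replicate 2, at 4.30 to 3.99. Syt9, at 0.476 and 0.616, stood below Syt1, Syt4 and Syt7, and Syt2 had no promoter peak. The order was the other way for Cadps, at 0.869 and 1.06, over Cadps2, at 0.424 and 0.608, and for Rab3a over Rab3d, at 5.36 and 6.83, and Rab27a, at 1.89 and 2.67. Apart from Syt11 and Syt7, each of these orders was the same in both pools, and with 1 library per pool none was tested.

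**Figure D5:**
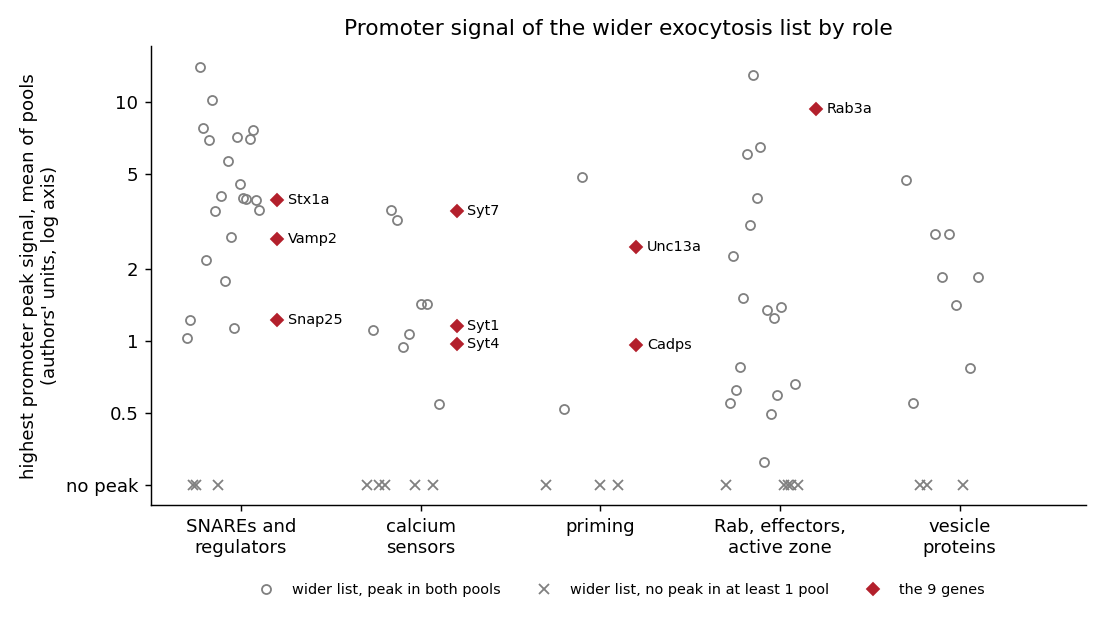
Highest promoter peak signal, mean of the pools (y axis, the authors' units, log scale), of the 75 genes of the wider list by role (grey) beside the 9 genes (red, named). Crosses mark genes without a promoter peak in at least 1 pool. Rab3a, at 9.38, stands near the top of its role, and Snap25 stands below most SNARE genes that have a peak.

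Sequence composition varied among the 9 promoters. The ratio of observed to expected CpG had a median of 0.668 against 0.587 over all genes, from 0.480 at Syt4 to 0.928 at Syt7, and GC content had a median of 59.3% against 55.6%, from 46.7% at Syt4 to 72.5% at Syt7. The CpG ratio of Snap25, Stx1a, Syt1 and Syt4 was below the median over all genes. The genes were long, with a median of 47.3 kb against 17.4 kb, but ran from 3.9 kb at Vamp2 to 513 kb at Syt1.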

How the data were processed

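DNase-seq of 2 adrenal gland pools was read from the authors' deposited files on mm10. Per the readme texts deposited with them, peaks and a table of false discovery rates were derived per library from filtered alignments, and footprints from the alignments and that table. The sources used here do not give the aligner, the callers or any threshold. The deposited peak signal is 0 or more and its scaling is unknown. The deposited table holds p-values adjusted as FDR, listed only under 0.05. The deposited footprint value was 0.01 for every footprint.

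Promoters were the 1 kb around any of 77161 TSSs of GENCODE M21 basic on 21 chromosomes. Peaks of the pools that overlapped by at least 1 bp were merged. Motifs were read on both strands in 200 bp at region midpoints of GRCm38.p6. CTCF was read by its usual degenerate consensus. The windows, motifs, alternatives and named genes followed written rules: all 9 genes, the strongest regions, and from the wider list the 3 strongest, those without a promoter peak, and listed paralogs. A few items that these rules name are not reported here. Of 76 genes on the wider list, 75 matched by symbol. Members and lists were chosen with earlier results of these data known. With 1 group no test was possible. The counting steps were tested on simulated data with Python 3.11.15, numpy 2.4.6 and pandas 2.3.3, and figures were drawn with matplotlib 3.10.9.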

Additional observations from a re-analysis of the deposited data

How the results depend on the processing

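The counts of promoter peaks and footprints, the median promoter signal and the median log2 ratio moved by less than 1.5 times, or by less than the spread between pools or, for the ratio, between regions, under every alternative run for each. For promoter peaks and their signal these were 500 bp and 2 kb promoters, TSSs of protein-coding transcripts, the shorter peak list, the upper 50% of peaks by signal, and equal numbers of peaks. For footprints they were the promoter widths, the TSSs and a 1 bp overlap between pools, and for the ratio the peak lists, a 50% overlap and windows of 25 and 100 kb. Promoter peaks were found in both pools at 8 of 9 genes with the shorter list, in which Vamp2 had none in replicate 1. Without one pool or the other, 9 of 9 genes had a promoter peak, the median signal was 1.95 to 3.0 against 2.48 for the mean of the pools, 8 to 9 genes had promoter footprints, 192 to 261 regions lay in the windows against 162, 548 to 771 footprints against a mean of 659.5, and 4 genes had an RE1 match in either case. Windows of 100 kb held 250 regions and 994 footprints. An RE1 match was found in 4 genes with up to 2 mismatches, in 2 with up to 1 and in 8 with up to 3, so this count depends on the mismatches allowed. Chosen after seeing the data, a reading of whole regions gave 6 genes, and 3 without a mismatch. With 500 bp promoters the Cadps signal was 0.565 in place of 0.966, since its intron 1 peak fell outside. No paired analysis was possible because there is only 1 group. The limits are 1 library per pool, an unknown depth and signal scale, and tissue that mixes cell types.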

Other observations

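The deposited FDR table was not read directly in the comparisons above, although the footprints were derived from it. It listed more promoter bases in replicate 2 than in replicate 1 at each of the 9 genes, by unequal amounts. At an FDR of at most 0.001 the order was the other way at Syt1, with 558 bp in replicate 1 and 531 bp in replicate 2. It was also the other way at Stx1a, with 447 and 408 bp. Within 1 kb of the Vamp2 TSSs, 10.2% of bases had an FDR under 0.05 in replicate 1 and 87.7% in replicate 2, and the lowest FDR was 0.000983 and 2.4e-69, although the peak signal of 2.32 and 3.02 differed by 1.30 times. At Rab3a the share was 66.7% in replicate 1, and every base was listed in replicate 2. At Snap25 it was 31.9% and 74.8%, and at Unc13a 24.4% and 60.3%. At Stx1a it was 27.2% and 30.3%, with a lowest FDR of 2.64e-20 and 2.35e-20.

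The regions of 1 pool alone were also uneven. In the Rab3a window 31 of 59 regions (52.5%) were in replicate 2 alone and 3 in replicate 1 alone, in the Cadps window 15 of 31 (48.4%) and 3, in the Syt4 window 2 of 5 and 1, and in the Unc13a window 12 of 33 (36.4%) and 0, while over the genome 28.9% of regions were in replicate 2 alone and 11.1% in replicate 1 alone. In the Stx1a window 5 were in replicate 1 alone and 4 in replicate 2 alone. The regions of replicate 2 alone near Rab3a had a median width of 200 bp and a median signal of 0.512, against 140 bp and 0.384 over the genome.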
